A study of Mus musculus with 8 samples.

Results

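The clustered protocadherins of mouse chromosome 18 are 3 families of genes, alpha, beta and gamma, that lie side by side and are read from many alternative first exons. In GENCODE vM1 on the mm9 build, 24 of 22367 protein-coding genes carry a Pcdha, Pcdhb or Pcdhg symbol on this chromosome, and they hold 40 variable first exons with their own transcription start site (TSS). The members were picked by symbol and place, and no measured value was part of that rule, but earlier results of these data were known when it was set. They comprised 10 alpha exons of the genes Pcdha11 (ENSMUSG00000007440.7) and Pcdha3 (ENSMUSG00000091969.1), 21 beta genes between Pcdhb1 and Pcdhb22, and 9 gamma exons of Pcdhgc5 (ENSMUSG00000023036.7). The span ran over 892 kb, at chr18:37089939-37981788 from the first alpha start to the end of the last variable gamma exon. Since this annotation merges most alpha and gamma genes, their exons are named here by transcript (Pcdha11-204 and so on), and the files do not pair these exons with the usual gene symbols.

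Clustered protocadherins are cell-surface adhesion proteins of the cadherin superfamily, known best from neurons, where the combination of isoforms on a cell marks self from non-self. Each variable exon has its own promoter, and in alpha and gamma the chosen exon is spliced to constant exons shared by the family, whereas beta genes have no constant exons. In neurons promoter choice depends on CTCF, cohesin and DNA methylation, and in many other tissues the clusters are known to be largely silent. H3K4me3 and H3K9ac are marks of active promoters, H3K27me3 is the mark of Polycomb repression, and H3K36me3 lies over transcribed gene bodies.

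The study profiled these 4 marks by ChIP-seq in isografts of Lewis lung carcinoma (LLC), a mouse tumor line, to compare tumors sensitive and resistant to VEGF-Trap, a soluble decoy receptor that binds VEGF. LLC-NR is the drug-sensitive line, and LLC-R was derived from LLC through 5 rounds of selection in mice under VEGF-Trap. Cells of both lines were grown under the skin of the right flank of female C57BL/6J mice of 6 to 8 weeks to about 500 mm3, with 10 mice per line, and no allele other than those of the line and the host was named. Each line and mark gave 1 library, 8 in all, so that no spread between tumors could be measured, no test was possible, and a difference between lines has no replicate check. Isografts hold host vessels, fibroblasts and leukocytes beside tumor cells, and whether tumors were pooled is not given in the sources used here.

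Every file listed the start and end of peaks, all as wide as the DNA on a nucleosome core, with no height and no 2 peaks overlapping. The measure is therefore the number of nucleosome-sized peaks in a region, which cannot exceed the number that fits there and does not measure the strength of a mark. The study reports more uniquely mapped reads in LLC-R than in LLC-NR for H3K27me3 and H3K36me3, and fewer for H3K4me3 and H3K9ac. The part of this depth in the comparisons of lines was not tested. Libraries held 5660458 to 9101721 peaks, and 3.08% to 3.6% of them lay on chromosome 18. This share was higher in LLC-R for all 4 marks, with a log2 ratio of 0.20 for H3K4me3, 0.10 for H3K9ac, 0.12 for H3K27me3 and 0.16 for H3K36me3, so the members were set against the rest of chromosome 18. Promoters of epithelial, leukocyte, endothelial, fibroblast and neuronal markers all carried H3K4me3 in both lines, with 1 to 8 peaks each, and means from 3.8 to 6.0 over the 5 lists (4 of 5 neuronal markers were in the gene models). Peak numbers thus did not set the labelled tissue apart from other cell types.

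The 3 families differed in their sequence before any mark was counted. All 10 alpha promoters were CpG-rich promoters (HCPs), against 1 of 21 beta promoters (Pcdhb1) and 5 of 9 gamma promoters. Of the others, 16 beta and 3 gamma promoters were of intermediate CpG level (ICPs) and 4 beta and 1 gamma promoters were CpG-poor (LCPs). In alpha and gamma the CpGs lay mainly in the exons. The kb upstream of the alpha starts had a median G+C content of 35.1% and a CpG observed-to-expected ratio of 0.41, whereas the first 500 bp of the exons had 57.0% and 0.72. In gamma the same medians were 40.6% and 0.24 upstream and 54.6% and 0.73 in the exons, and in beta 36.9% and 0.29 upstream and 47.2% and 0.33 in the exons. Family members resemble each other, and reads that map to more than 1 place had been dropped. Of all 32-base sequences, 78.8% occurred once in the genome across the span, against 86.7% over chromosome 18, and the median over promoters was 86.4% for alpha, 99.5% for beta and 98.3% for gamma. Single alpha promoters were 82.2% to 100% unique.

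H3K4me3 peaks at the promoters were counted between 1 kb before and 0.5 kb after the TSS. They were fewer at alpha and beta exons than over all other promoters of chromosome 18, and near the average at the 9 annotated gamma exons. A further 13 gamma reading frames that the annotation lacks had 3.77 peaks in LLC-NR against 3.92 in LLC-R, counted from the start codon. Beta exons stood near promoters of the same CpG class. Over all 40 exons the mean was 3.88 ± 1.51 peaks (SD across exons, 1 library) in LLC-NR against 3.9 ± 1.34 in LLC-R. The other 489 promoters of the chromosome had 4.98 ± 1.82 and 4.91 ± 1.59. The ratio was 0.778 in LLC-NR (95% Poisson interval 0.660 to 0.910) against 0.794 in LLC-R (0.674 to 0.928), where the interval covers counting error only. In tumor tissue, fewer cells with a mark and less of it per cell cannot be told apart. Against HCPs of the chromosome alone, which had 5.87 and 5.63 peaks, the ratio was 0.660 and 0.693. Most members are not HCPs, while 302 of the 489 other promoters are, so members were also compared within CpG classes. The 16 CpG-rich members had 0.703 times the peaks of other HCPs in LLC-NR (0.544 to 0.894) against 0.667 in LLC-R (0.509 to 0.858). Among these the 10 alpha promoters had 0.562 (0.387 to 0.790) and 0.604 (0.419 to 0.845), and the 5 gamma promoters 0.988 (0.662 to 1.42) and 0.853 (0.547 to 1.27). The 19 members that are ICPs had 3.63 and 4.0 peaks, where the 106 other ICPs had 3.6 and 3.71. For the 16 beta ICPs alone the ratio to other ICPs was 0.919 (0.689 to 1.2) and 1.03 (0.787 to 1.32), so no deficit of beta promoters was detectable within their class.

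By family, alpha promoters had 3.30 ± 1.25 H3K4me3 peaks in LLC-NR against 3.40 ± 1.43 in LLC-R (n = 10 exons). Their ratio to the rest of the chromosome was 0.662 (0.456 to 0.930) and 0.692 (0.479 to 0.967). Beta promoters had 3.38 ± 1.12 and 3.71 ± 1.31 (n = 21), with ratios of 0.678 (0.530 to 0.856) and 0.756 (0.597 to 0.943). Gamma promoters had 5.67 ± 1.22 and 4.89 ± 0.782 (n = 9), with ratios of 1.14 (0.847 to 1.5) and 0.995 (0.723 to 1.34). Alpha and beta means differed by less than the SD across exons, while each gamma exon held 4 to 8 peaks in LLC-NR against 4 to 6 in LLC-R. Alpha exons ranged from 1 to 5 peaks in both lines, and beta exons from 1 to 5 in LLC-NR against 1 to 6 in LLC-R. The alpha means were close to those of the LCPs of chromosome 18, which had 3.49 ± 1.51 in LLC-NR against 3.84 ± 1.34 in LLC-R, but alpha promoters were 88.7% unique on average and HCPs 97.7%. Per kb of unique sequence alpha had 0.619 (0.426 to 0.870) and 0.665 (0.461 to 0.930) times the peaks of the HCPs. Against all other promoters of the chromosome the same measure gave 0.706 (0.486 to 0.991) and 0.737 (0.511 to 1.03), where the LLC-R interval holds 1. The 3 alpha promoters with at least 90% unique sequence had 3.67 and 4.67 peaks. Their ratios to all other promoters of the chromosome were 0.736 (0.367 to 1.32) and 0.95 (0.519 to 1.59). At this number a deficit against that base was not detectable in them. All 3 are HCPs, and the other HCPs of the chromosome had 5.87 and 5.63 peaks. Other promoters with at least 90% unique sequence had 5.26 and 5.18. Among promoters with at least 90% unique sequence, 28 of them members, the ratio of members to other promoters was 0.794 in LLC-NR against 0.813 in LLC-R. Counted from the start codon, the 9 annotated gamma reading frames had 5.44 ± 1.01 and 4.56 ± 0.882 peaks. The 13 further gamma reading frames of at least 2 kb that the annotation lacks had 3.77 ± 0.927 and 3.92 ± 0.954. All 22 gamma frames had 4.45 and 4.18 peaks on average, where the other promoters of chromosome 18 had 4.98 and 4.91 around their TSS.

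**Figure D1:**
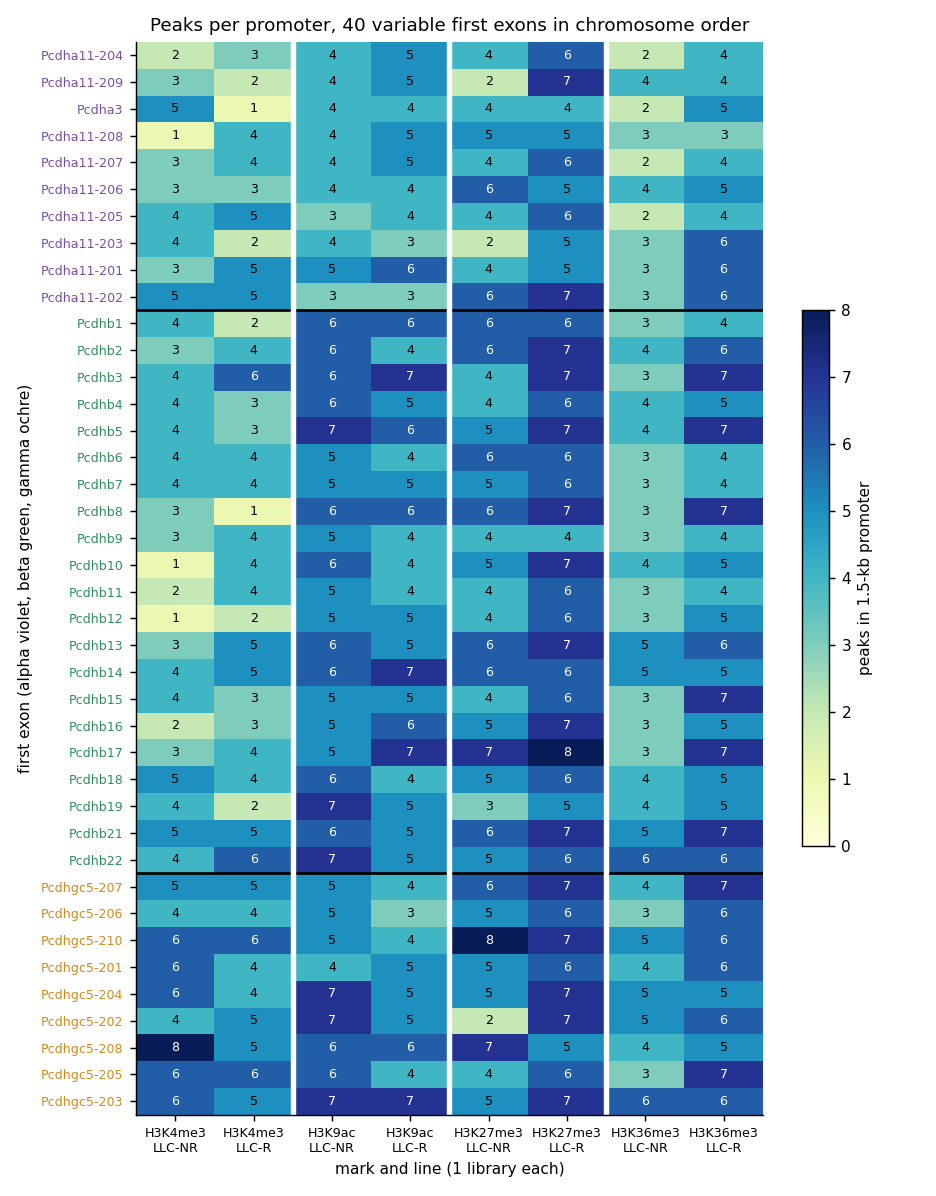
Number of peaks in the promoter of each of the 40 variable first exons (rows, in chromosome order, alpha violet, beta green, gamma ochre) in each of the 8 libraries (columns), as printed numbers and colour. H3K4me3 lies between 1 and 6 in the alpha and beta rows and reaches 8 at Pcdhgc5-208 in LLC-NR.

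H3K9ac peaks were fewer at alpha promoters than in the other families in LLC-NR, while in LLC-R the families overlapped widely. Alpha promoters had 3.9 ± 0.568 peaks in LLC-NR, with every exon between 3 and 5, and 4.40 ± 0.966 in LLC-R. Beta promoters had 5.76 ± 0.70 and 5.19 ± 1.03 peaks, and gamma promoters 5.78 ± 1.09 and 4.78 ± 1.2. The rest of chromosome 18 had 5.51 ± 1.52 and 5.19 ± 1.40. Per kb of unique sequence alpha had 0.755 (0.537 to 1.03) and 0.903 (0.656 to 1.21) times the H3K9ac of the chromosome's promoters, and both intervals hold 1. All 21 beta promoters held at least 5 peaks in LLC-NR, where 9 of 10 alpha promoters held 4 or fewer. The last 2 alpha exons, whose promoters are fully unique, did not share a level. Pcdha11-201 had 5 H3K9ac peaks in LLC-NR against 6 in LLC-R, the highest of the family, and Pcdha11-202 had 3 and 3, the lowest.

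H3K27me3 at the members was near the level of the chromosome in both lines. The mean was 4.85 ± 1.33 peaks in LLC-NR against 6.18 ± 0.903 in LLC-R. The other promoters had 4.54 ± 1.62 and 5.71 ± 1.28, which gives ratios of 1.07 (0.924 to 1.23) and 1.08 (0.951 to 1.23). Alpha exons had 4.10 ± 1.37 and 5.6 ± 0.966 peaks, beta exons 5.05 ± 1.02 and 6.33 ± 0.856, and gamma exons 5.22 ± 1.72 and 6.44 ± 0.727. The difference between members and other promoters was within counting error in both lines. H3K36me3 at the promoters, a mark usually low at active starts, was 3.63 ± 1.03 and 5.4 ± 1.13 peaks, with ratios of 1.21 (1.02 to 1.43) and 1.05 (0.911 to 1.19). Within CpG classes the LLC-NR ratio was 1.13 (0.836 to 1.49) for HCPs, 1.21 (0.957 to 1.52) for ICPs and 1.11 (0.675 to 1.71) for LCPs. Each of these intervals holds 1.

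H3K4me3 was also compared in sequence where nearly all reads can be placed. An open reading frame of at least 2 kb marks each variable exon. In the span 58 such frames with at least 50% unique sequence were found (14 alpha, 22 beta, 22 gamma). Of these 40 are the annotated members and 18 hold no first exon of a member in GENCODE vM1. The RefSeq table lists 14 alpha, 22 beta and 22 gamma genes on chromosome 18, the same numbers as the frames. A further 3 frames of this length were under 50% unique and were left out. The kb upstream of their start codons was 99.6% unique in alpha, 99.1% in beta and 96.6% in gamma, while the first 500 bp of the alpha exons were 62.9% unique. In this upstream kb the 58 frames had 2.57 H3K4me3 peaks per kb (2.17 to 3.02) in LLC-NR and 2.53 (2.14 to 2.98) in LLC-R. HCPs of chromosome 18 had 3.75 (3.54 to 3.98) and 3.56 (3.35 to 3.78) in the kb upstream of the TSS, so the intervals did not overlap in either line. ICPs had 2.42 and 2.58 per kb and LCPs 2.23 and 2.63, which lie inside the intervals of the 58 frames. This kb was 97.3% unique at HCPs, 90.4% at ICPs and 93.0% at LCPs, and the part of that in the counts was not tested. Alpha alone had 2.5 (1.74 to 3.48) and 2.14 (1.45 to 3.06), beta 2.32 (1.73 to 3.05) and 2.36 (1.77 to 3.10), and gamma 2.86 (2.20 to 3.66) and 2.95 (2.28 to 3.77), so that the gamma intervals reached those of the HCPs. H3K9ac in the same kb was 3.59 (3.12 to 4.11) and 3.47 (3.0 to 3.98) per kb over the 58 frames, against 3.79 and 3.49 at HCPs, so no deficit of this mark was detectable upstream of the exons. The start codon lies at or downstream of the TSS, and the part of this shift in the comparison was not tested.

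**Figure D2:**
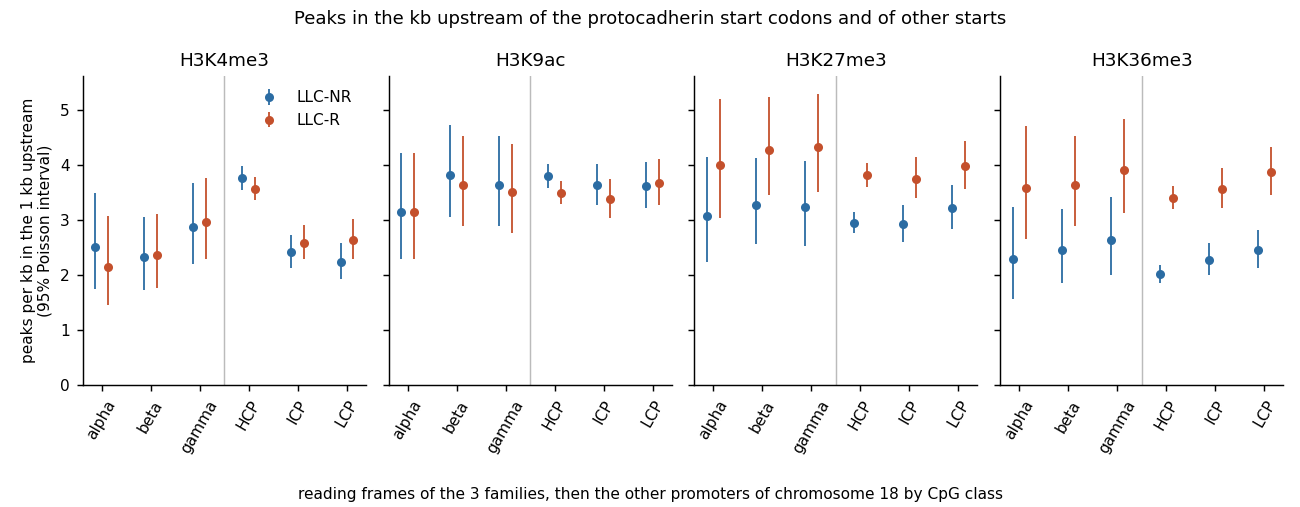
Peaks per kb in the 1 kb upstream of the start codons of the 58 protocadherin reading frames, by family, and of the TSS of the other promoters of chromosome 18, by CpG class, for each mark and line. Points are counts over the group divided by its length and bars are 95% Poisson intervals. H3K4me3 of all 3 families sits near ICPs and LCPs, and HCPs stand at 3.75 in LLC-NR against 3.56 in LLC-R.

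Around the start of the exons the H3K4me3 counts per kb went up by less than at CpG-rich promoters, or went down. Distances were taken from the start codon for the frames and from the TSS for HCPs. No counting intervals were computed for these values. ICPs and LCPs were not profiled, although most beta frames belong to these classes. The first 500 bp were 89.7% unique in beta frames, 90.6% in gamma frames and 98.5% at HCPs. The part of this difference in the counts was not tested. H3K4me3 at HCPs of chromosome 18 went from 3.36 peaks per kb between 2 and 1 kb upstream to 4.23 in the first 500 bp downstream of the TSS in LLC-NR, and from 3.26 to 4.13 in LLC-R. Beta frames went from 2.32 to 2.0 in LLC-NR and from 2.14 to 2.45 in LLC-R. Gamma frames went from 3.14 to 3.18 and from 2.95 to 2.45. Alpha frames went from 2.43 to 1.43 and from 2.36 to 2.14, and the first 500 bp of these frames were 62.9% unique. In the same stretch alpha frames went from 4.0 to 1.86 and from 3.43 to 2.0 H3K9ac peaks per kb, where HCPs went from 4.02 to 3.64 and from 3.76 to 3.44. H3K36me3 at HCPs dipped to 1.40 per kb in the first 500 bp in LLC-NR, from 2.60 upstream and 2.81 between 0.5 and 2.5 kb downstream. Gamma frames showed no such dip, with 3.0, 2.82 and 2.59 per kb, and beta frames fewer peaks within the exon than upstream, with 2.91, 2.36 and 1.55. Between 0.5 and 2.5 kb downstream beta frames were 82.5% unique, alpha frames 84.8%, gamma frames 92.9% and HCPs 96.4%, so these counts per kb are not corrected for uniqueness. Alpha frames had 2.36, 1.29 and 1.86, the middle value in the stretch of 62.9% unique sequence. In LLC-R the HCPs had 3.97, 3.21 and 4.02, gamma frames 4.0, 4.0 and 4.05, and beta frames 3.64, 3.27 and 3.39. A second low stretch in alpha, from 1.4 to 1.8 kb into the exon, had 0.893 H3K9ac and 1.07 H3K36me3 peaks per kb in LLC-NR, and 57.6% of it was unique.

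**Figure D3:**
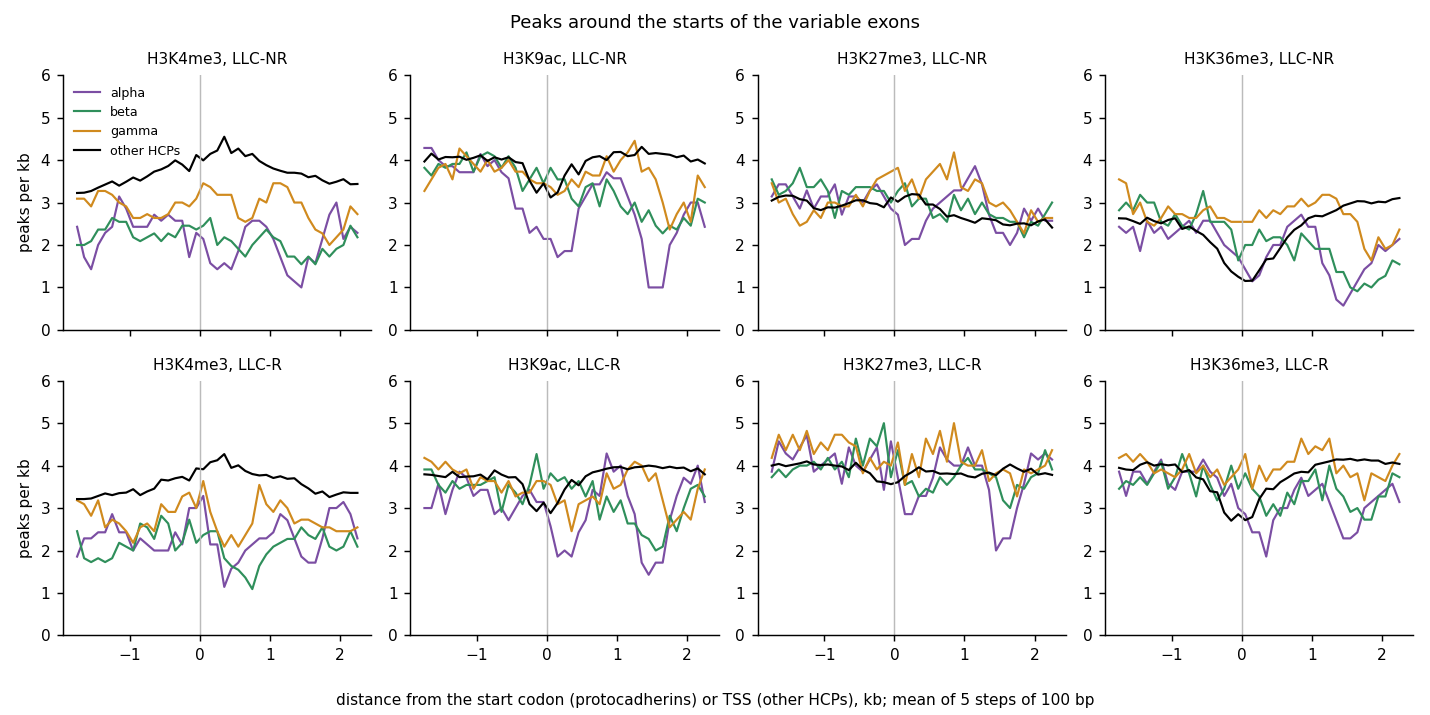
Peaks per kb against distance from the start codon (58 protocadherin reading frames, by family) or from the TSS (302 other HCPs of chromosome 18, black), as a mean over 5 steps of 100 bp, for LLC-NR (top) and LLC-R (bottom). HCPs rise for H3K4me3 to 4.23 per kb and dip for H3K36me3 to 1.40 in the first 500 bp in LLC-NR, where gamma frames hold 3.18 and 2.82.

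H3K36me3 over the variable exons, from 0.5 to 3 kb downstream of the TSS, was below that of other genes in LLC-NR and closer to it in LLC-R. The LLC-R library of this mark had more uniquely mapped reads, and the part of that in the comparison of lines was not tested. The 40 exons had 2.13 ± 0.852 peaks per kb in LLC-NR, a ratio of 0.787 (0.685 to 0.90) to the other genes of chromosome 18, and 3.57 ± 0.649 in LLC-R, a ratio of 0.924 (0.831 to 1.02). These stretches were 88.6% unique, and those of the other genes 93.1%. Per kb of unique sequence the ratio was 0.827 (0.720 to 0.946) in LLC-NR against 0.971 (0.873 to 1.08) in LLC-R. By family it was 0.813 (0.609 to 1.06), 0.754 (0.612 to 0.918) and 0.995 (0.763 to 1.28) for alpha, beta and gamma in LLC-NR, so that among the families the interval lay below 1 for beta alone. Beta exons were lowest, at 1.87 ± 0.833 and 3.39 ± 0.653 per kb, with Pcdhb5 at 0.40 in LLC-NR against 3.20 in LLC-R. Alpha exons had 2.12 ± 0.598 and 3.48 ± 0.567. Gamma exons had 2.76 ± 0.882 and 4.09 ± 0.481, next to 2.71 ± 0.915 and 3.86 ± 0.746 over the other genes. At least 2 more peaks were present in LLC-R over 35 of 40 exons, where 63.0% of all genes and 74.0% of the other genes of chromosome 18 met this, and at least 2 fewer over 0 exons, where 1.61% did. The log2 ratio of LLC-R to LLC-NR over the exons was 0.23 relative to the other genes of the chromosome (−0.02 to 0.48), an interval that holds 0, and 0.75 as deposited.

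Promoter states combine 3 marks. A promoter was active when H3K4me3 or H3K9ac stood at or above the mean over all promoters of the library and H3K27me3 below it, bivalent when an active mark and H3K27me3 both reached their means, repressive when only H3K27me3 reached its mean, and none otherwise. In LLC-NR 17 of 40 members were bivalent (all promoters: 48.3%), 6 active (29.8%), 7 repressive (8.20%) and 10 none (13.6%). In LLC-R 26 were bivalent (52.9%), 4 active (28.4%), 6 repressive (5.73%) and 4 none (12.9%). The shares of repressive members were 17.5% and 15%, and those of active members 15% and 10%. Alpha held 6 of the 10 promoters without a state in LLC-NR against 3 of 4 in LLC-R. None of the 9 annotated gamma promoters was without a state in either line. States used peak numbers not corrected for uniqueness, and alpha promoters were 88.7% unique on average. The part of this in the states was not tested, and states were not compared within CpG classes. The same state was found in both lines for 18 of 40 members (45%) and for 62.1% of all promoters. The means of the 3 marks lay between 4.55 and 5.51 peaks, so a difference of 1 peak changes the state of many promoters.

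Single exons differed between the lines by a few peaks and in both directions for H3K4me3. At least 2 more H3K4me3 peaks in LLC-R were counted at 7 of 40 promoters (17.5%), against 9.0% of all promoters, and at least 2 fewer at 8 (20%), against 18.4%. On chromosome 18 the share with at least 2 more was 6.62% of the other HCPs, 15.1% of ICPs and 16.0% of LCPs. Among members of these classes it was 12.5%, 26.3% and 0%. For H3K9ac 1 promoter had at least 2 more (2.5%, all promoters 5.40%) and 9 had at least 2 fewer (22.5%, all promoters 22.1%). For H3K27me3 18 promoters had at least 2 more (45%, all promoters 31.9%) and 1 had at least 2 fewer (2.5%, all promoters 3.46%). For H3K36me3 20 promoters had at least 2 more (50%, all promoters 56.0%) and 0 had fewer by 2 (all promoters 1.11%). Within chromosome 18 the share with more H3K27me3 was 38.0%. The difference between lines varied among members with an SD of 1.62 peaks for H3K4me3, against 1.37 over the other promoters of the chromosome. By CpG class the SD over those promoters was 1.24 for HCPs, 1.52 for ICPs and 1.54 for LCPs. Among members it was 1.86, 1.54 and 1.0 in the same classes. For the other marks members varied less, with SDs of 1.17 against 1.34 for H3K9ac, 1.37 against 1.46 for H3K27me3 and 1.27 against 1.59 for H3K36me3. The ranks of the exons in the 2 lines had Spearman coefficients of 0.39, 0.41, 0.35 and 0.31 for H3K4me3, H3K9ac, H3K27me3 and H3K36me3 across 40 exons, against 0.66, 0.48, 0.47 and 0.32 across 489 promoters. These coefficients describe promoters within 1 pair of libraries, and neighbouring exons share sequence. They were not computed within CpG classes, and the classes are mixed differently in the 2 sets.

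In the alpha family the ends of the array and the exons that differed most were as follows. Pcdha11-204, the first exon (promoter chr18:37088939-37090438), had 2 H3K4me3 peaks in LLC-NR against 3 in LLC-R, with 4 and 5 peaks of H3K9ac and 4 and 6 of H3K27me3. Pcdha11-202, the last, had 5 and 5 H3K4me3, 3 and 3 H3K9ac, and 6 and 7 H3K27me3 peaks, with the fewest H3K9ac peaks over both lines among members. In the order of the RefSeq table the last 2 alpha genes are Pcdhac1 and Pcdhac2, the C-type genes, which in neurons are used without random choice. Pcdha3 had the largest difference of H3K4me3 among all members, with 5 peaks in LLC-NR against 1 in LLC-R, at 4 and 4 peaks of both H3K9ac and H3K27me3, in a promoter of 85.3% unique sequence. Pcdha11-208 went the other way, with 1 H3K4me3 peak in LLC-NR against 4 in LLC-R at 86% unique sequence, and Pcdha11-201 had 3 and 5 at 100%. Pcdha11-203 had 4 and 2 H3K4me3 peaks and 2 and 5 H3K27me3 peaks, the fewest of that mark over both lines, at 84.9% unique sequence. Its promoter holds the start of Gm10545, a gene on the opposite strand with 3 and 5 H3K4me3 peaks, and the marks carry no strand. Pcdha11-209 had 2 and 7 H3K27me3 peaks, at 86.9% unique sequence, and Pcdha11-206 had 6 and 5, at 82.2%.

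In the beta family Pcdhb1, the first gene and the CpG-rich one, had 4 H3K4me3 peaks in LLC-NR against 2 in LLC-R, with 6 peaks of H3K9ac and of H3K27me3 in each line. Pcdhb22, the last, had 4 and 6 H3K4me3, 7 and 5 H3K9ac and 5 and 6 H3K27me3 peaks. Pcdhb10 had 1 and 4 H3K4me3 peaks but 6 and 4 H3K9ac peaks, so that the active marks differed in opposite directions. Pcdhb12 had the fewest H3K4me3 peaks over both lines, with 1 in LLC-NR against 2 in LLC-R. Pcdhb17 had 5 and 7 H3K9ac peaks, the only member with at least 2 more of this mark, and the most H3K27me3 together with Pcdhgc5-210, with 7 and 8 peaks. Pcdhb2 and Pcdhb18 each had 6 H3K9ac peaks in LLC-NR against 4 in LLC-R and stand here, by position, for the 9 exons with 2 fewer peaks of this mark.

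In the gamma family Pcdhgc5-208 (promoter chr18:37965064-37966563) had the most H3K4me3 peaks of all members, with 8 peaks in LLC-NR against 5 in LLC-R, and it also had fewer H3K27me3 peaks in LLC-R, with 7 and 5. It is the first of the last 3 gamma exons, which take the place of the C-type genes Pcdhgc3, Pcdhgc4 and Pcdhgc5 in the order of the RefSeq table. Together these 3 had 6.67 and 5.33 H3K4me3 peaks per promoter, and the other 6 gamma exons 5.17 and 4.67. Pcdhgc5-203, the last exon, had 6 and 5 H3K4me3 peaks and the most H3K9ac, with 7 peaks in each line. Pcdhgc5-207, the first, had 5 H3K4me3 peaks in each line. Pcdhgc5-202 had 2 and 7 H3K27me3 peaks, a difference equal to that of Pcdha11-209, and Pcdhgc5-210 had 8 and 7.

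Over all 40 promoters the intervals of the difference between lines, relative to the rest of the chromosome, held 0 for each of the 4 marks. The members held 155 H3K4me3 peaks in LLC-NR against 156 in LLC-R, a log2 ratio of 0.03 relative to the other promoters of chromosome 18 (−0.30 to 0.36) and 0.28 after division by uniquely mapped reads. H3K9ac numbered 212 and 196, which was −0.03 relative to the chromosome (−0.32 to 0.26), −0.11 as deposited and 0.69 after division by reads. H3K27me3 numbered 194 and 247, which was 0.02 relative to the chromosome (−0.26 to 0.30), 0.35 as deposited and −0.75 after division by reads. H3K36me3 numbered 145 and 216, which was −0.22 relative to the chromosome (−0.53 to 0.10), 0.57 as deposited and −0.64 after division by reads. The direction for H3K9ac, H3K27me3 and H3K36me3 thus depended on the scaling.

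In 5-kb tiles across the locus, peak numbers followed how much of the sequence is unique. The 178 tiles had a mean of 10.1 ± 4.59 H3K4me3 peaks in LLC-NR (SD across tiles) against 10.3 ± 4.12 in LLC-R. The 17320 other tiles of the chromosome had 9.99 and 11.5. In 25 of the 178 tiles under 50% of 32-base sequences were unique, against 1180 of the other 17320, and these locus tiles held 2.68 and 2.96 H3K4me3 peaks. The Spearman coefficient between unique share and H3K9ac peaks was 0.813 in LLC-NR against 0.771 in LLC-R over the locus, and 0.562 and 0.595 over the other tiles, as a description of tiles that share a library. In the 83 tiles with at least 90% unique sequence H3K4me3 stood at 1.16 times the chromosome in LLC-NR (1.09 to 1.23) against 0.999 in LLC-R (0.939 to 1.06). In those tiles H3K27me3 stood at 1.11 (1.06 to 1.17) and 1.03 (0.985 to 1.08), and H3K9ac at 1.01 and 0.993. The 60 tiles that hold a member had 1.21 and 1.01 times the H3K4me3 of the chromosome's tiles and were 90.8% unique. The 118 tiles between them had 0.911 and 0.840 and were 72.7% unique. The other tiles of the chromosome were not chosen for holding a start, and tiles with other starts were not compared. Tile ratios and promoter ratios therefore have unlike bases. Over all tiles, per kb of unique sequence, H3K4me3 stood at 1.11 times the chromosome in LLC-NR against 0.988 in LLC-R.

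**Figure D4:**
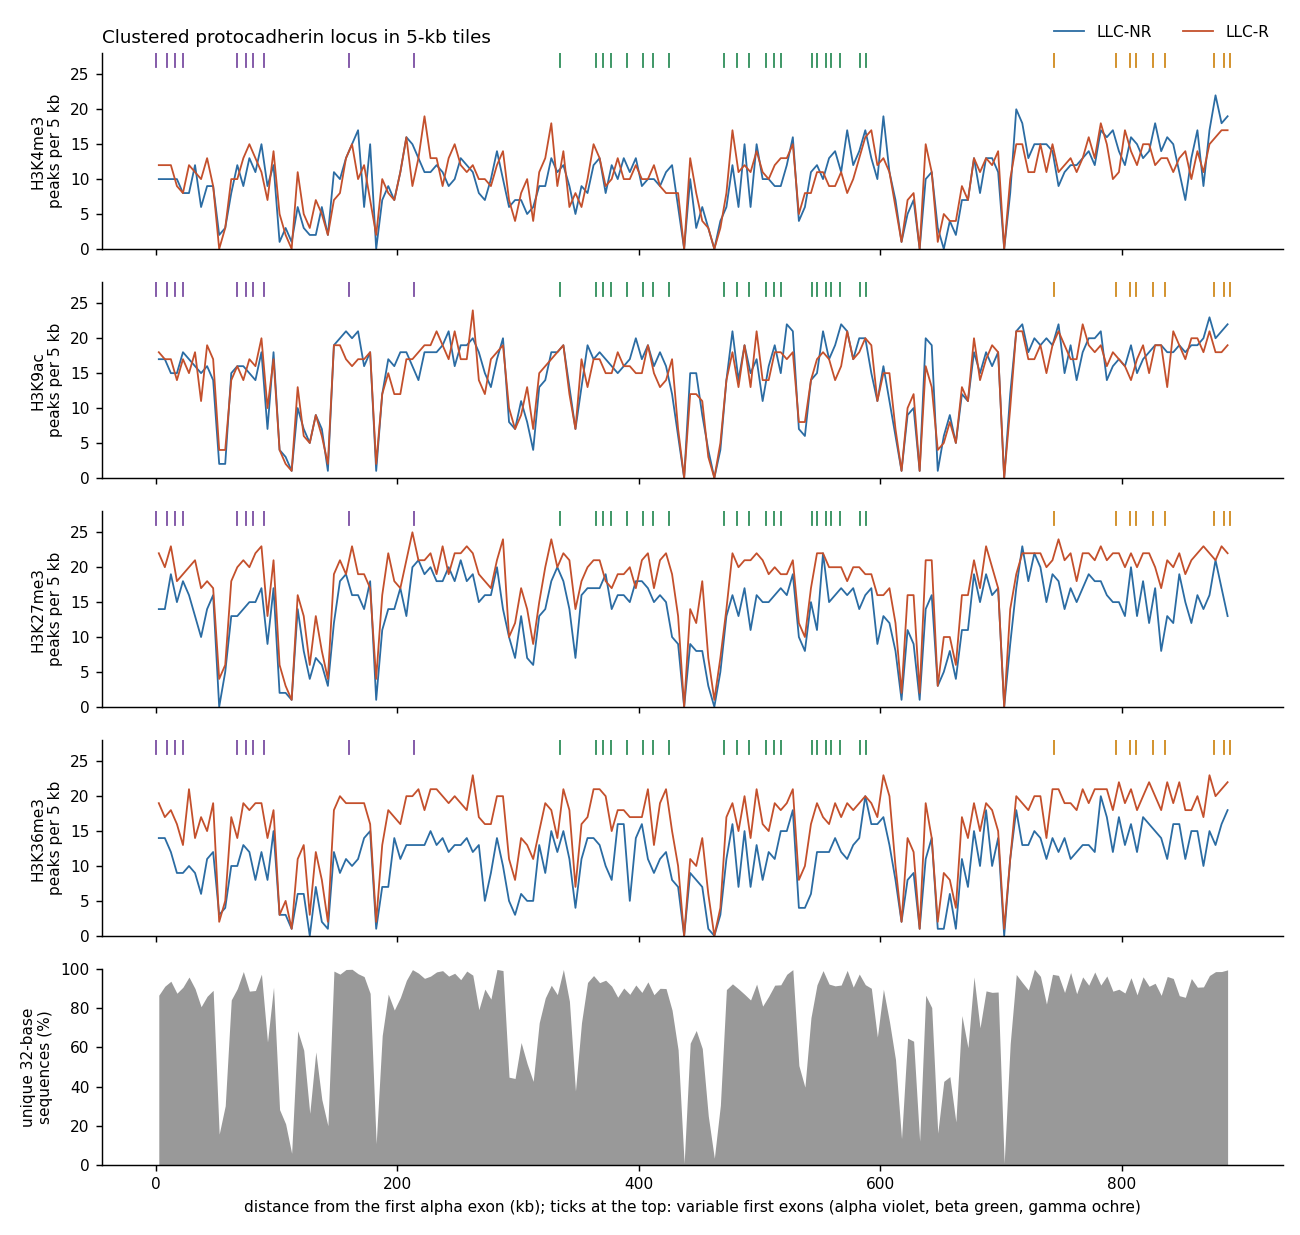
Peaks per 5-kb tile along the locus for each mark in LLC-NR (blue) and LLC-R (red), and the share of unique 32-base sequences (grey), against distance from the first alpha exon in kb. Ticks mark the variable first exons (alpha violet, beta green, gamma ochre). Tiles near 0 peaks in all 4 marks sit where the grey area is low, and the 25 tiles under 50% unique hold 2.68 H3K4me3 peaks on average in LLC-NR.

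The comparison of the lines along the locus showed a lower H3K4me3 ratio than in the rest of chromosome 18, and this direction turned with the scaling. The tiles held 1800 H3K4me3 peaks in LLC-NR against 1835 in LLC-R, a log2 ratio of −0.17 relative to the other tiles (−0.27 to −0.08), but 0.03 relative to all peaks of each library and 0.30 after division by uniquely mapped reads. Of 94 stretches of chromosome 18 as long as the locus, 2 had a lower H3K4me3 ratio than the locus, and their ratios ran from −0.19 to 0.19. The gamma array had −0.29 (−0.49 to −0.10), with 464 and 435 peaks, the beta array −0.19 (−0.37 to −0.01), with 497 and 501, and the alpha array −0.14 (−0.35 to 0.07), with 367 and 384. The Mb before the locus had −0.04 (−0.12 to 0.04) and the Mb after it 0.04 (−0.04 to 0.12). In the 83 tiles with at least 90% unique sequence the H3K4me3 ratio was −0.22 (−0.34 to −0.09). In these tiles H3K27me3 had −0.11 (−0.21 to −0.01), H3K9ac −0.03 (−0.13 to 0.07) and H3K36me3 −0.05 (−0.16 to 0.07). Over all locus tiles H3K9ac had −0.00 (−0.08 to 0.08), H3K27me3 −0.08 (−0.15 to 0.00) and H3K36me3 −0.03 (−0.11 to 0.06). Of the 94 stretches, 49, 33 and 38 had lower ratios for these marks. Chromosome 18 as a whole held a higher share of the H3K4me3 peaks in LLC-R, with 3.08% and 3.55%, and the part of that shift in the result was not tested.

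**Figure D5:**
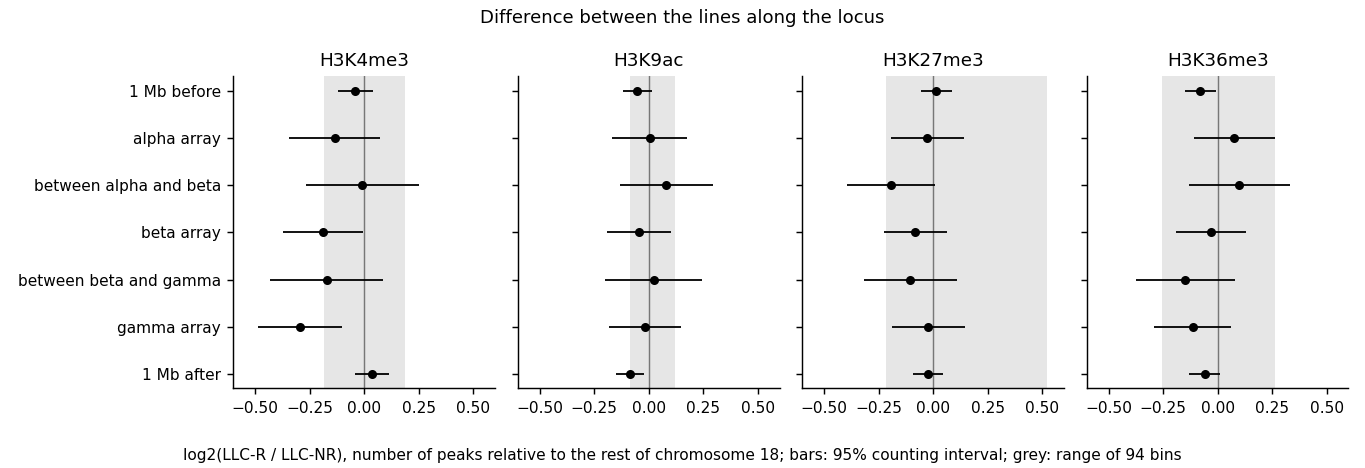
Log2 ratio of peaks in LLC-R over LLC-NR, relative to the rest of chromosome 18, for the Mb on each side of the locus, the 3 arrays and the stretches between them, by mark. Bars are 95% counting intervals and the grey band is the range of 94 stretches of the chromosome as long as the locus. For H3K4me3 the gamma array lies at −0.29, outside the band, whose lower end is −0.19, but it is shorter than those stretches.

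Within the locus the gamma array carried the most H3K4me3 per kb of unique sequence. It had 3.09 peaks per unique kb in LLC-NR against 2.90 in LLC-R, which is 1.34 and 1.10 times the rest of chromosome 18. The alpha array had 2.30 and 2.41 (1.0 and 0.910 times), and the beta array 2.44 and 2.46 (1.06 and 0.928 times). The tile with most H3K4me3, with 22 peaks in LLC-NR against 16 in LLC-R, holds the start of Pcdhgc5-208 at chr18:37964939-37969938. The next, with 20 and 15, holds Taf7, a gene of a general transcription factor subunit between beta and gamma whose promoter had 8 and 7 H3K4me3 and 7 and 6 H3K9ac peaks. The gamma constant exons lie with their introns in the 19.7 kb after the last variable exon, and the alpha ones in 41.1 kb. Peaks were counted over these whole stretches. Over the gamma stretch H3K36me3 stood above the chromosome in LLC-NR. This stretch held 75 H3K36me3 peaks in LLC-NR against 88 in LLC-R. That is 3.94 peaks per unique kb in LLC-NR, 1.46 times the rest of the chromosome, and 4.63 in LLC-R, 1.13 times. The log2 ratio between lines was −0.37 relative to the chromosome (−0.83 to 0.09). The alpha stretch had 2.75 and 4.08 peaks per unique kb, or 1.02 and 0.995 times. H3K27me3 went the other way, with 1.27 and 1.02 times the chromosome over the alpha stretch and 0.868 and 0.857 times over the gamma stretch. Counting intervals were not computed for these ratios to the chromosome.

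The other protein-coding genes in and near the span had 1 to 8 H3K4me3 peaks. Diap1, a formin gene just past the gamma cluster, had 7 H3K4me3 peaks in LLC-NR against 6 in LLC-R. Slc25a2, a mitochondrial carrier gene next to Taf7, had 5 and 4, and 3222401L13Rik had 4 and 4. Gm6756, before the alpha array, had 3 and 1. The 12 non-clustered protocadherins, which are single genes outside the clusters such as Pcdh1, Pcdh7 and Pcdh19, had 3.92 and 4.50 H3K4me3 peaks on average, and 4 of 12 in LLC-NR against 7 of 12 in LLC-R stood at or above the mean of all promoters, which 63.8% and 58.8% of all promoters reached. Their H3K27me3 was 6.17 and 5.83 peaks, with 11 of 12 and 8 of 12 at or above its mean, which 56.5% and 58.7% of all promoters reached. The 12 genes known to act on the clusters, among them Ctcf, Rad21, Smc3, Wapal, Smchd1, Dnmt3b and Setdb1, had 6.17 and 6.08 H3K4me3 peaks, with 11 of 12 at or above the mean in each line, set against the same 63.8% and 58.8%. Ctcf, the architectural factor that binds protocadherin promoters in neurons, had 6 H3K4me3 peaks in each line and Smchd1, a chromatin repressor of the clusters, had 6 in each line.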

How the data were processed

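The authors crosslinked isograft tissue, digested its chromatin with micrococcal nuclease, mapped the reads to mm9 with Bowtie 0.12.7, with up to 2 mismatches and unique hits only, and called peaks with GeneTrack, whose settings are not given in the sources used here. The deposited files hold peak positions, without heights or read numbers, so depth per library is not in them. The study reports the uniquely mapped reads of each library, and division by them was an alternative scaling. No input library was used here.

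Peaks were counted by midpoint in promoters (1 kb before to 0.5 kb after the TSS) and 5-kb tiles, with GENCODE vM1 gene models. First exons of a gene starting within 500 bp were merged. CpG classes used intervals of 500 bp, 55% G+C and CpG ratios of 0.6 and 0.4. Uniqueness was the share of 32-base sequences found once in the genome. The members and lists were chosen with earlier results of these data known. The 58 reading frames, the upstream kb, the profile, the stretches, the counts per unique kb and the comparison within CpG classes were chosen after seeing the data.

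The exons named were the first and last of each family, Pcdhb1, those in the place of the C-type genes and, for H3K4me3, H3K9ac and H3K27me3, the 3 largest differences each way and the most and fewest peaks over both lines (ties by position), besides neighbours within 100 kb and 2 gene lists. Pcdhb5 was named after its values were seen. With 1 library per line and mark no test was made. The 95% Poisson intervals cover counting error only, and ratios take the rest of the chromosome as fixed. The counting and uniqueness steps were tested on simulated data. Alternatives changed the window, overlap, TSS, uniqueness, CpG class, comparison promoters, scaling, tiles and thresholds. Python 3.11.15, NumPy 2.4.6, SciPy 1.17.1 and Numba 0.67.0 were used.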

Additional observations from a re-analysis of the deposited data

How the results depend on the processing

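Of 178 alternative values, 123 stayed within the counting interval of the value given above, or within 1.5 times it for counts, and the others moved further. Of the 44 alternative differences between lines 20 had the opposite sign, 11 of 28 at promoters and 9 of 16 over tiles. No paired analysis was possible because each line and mark had 1 library, which share only the number 1. Among the main differences, over all promoters or all tiles, only that of H3K4me3 over tiles had an interval that did not hold 0. This difference became 0.0323 relative to all peaks of each library, 0.30 after division by uniquely mapped reads and 0.0278 as deposited. With all peaks as the scale the tile difference was 0.10 for H3K9ac, 0.0426 for H3K27me3 and 0.13 for H3K36me3, and the promoter difference of H3K36me3 was 0.13. With reads the tile differences were 0.78, −0.73 and −0.64 and the promoter differences 0.69, −0.75 and −0.64 for H3K9ac, H3K27me3 and H3K36me3. As deposited, H3K27me3 and H3K36me3 differed by 0.37 and 0.58 over tiles and by 0.35 and 0.57 at promoters. These changes follow from the scale by construction.

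Among HCPs alone the promoter ratio to the chromosome was 0.667 for H3K4me3 in LLC-R and 0.791 for H3K9ac in LLC-NR. Tiles with a member were set against all other tiles, with or without a start. Their ratios in LLC-NR and LLC-R were 1.21 and 1.01 for H3K4me3 and 1.04 and 1.02 for H3K9ac. For H3K27me3 they were 1.14 and 1.07, and for H3K36me3 1.04 and 1.02. In tiles with 90% unique sequence the tile ratios of these marks were 1.16 and 0.999, 1.01 and 0.993, 1.11 and 1.03, and 1.02 and 0.989. Per kb of unique sequence, chosen after seeing the data, they were 1.11 and 0.988, 0.990 and 0.989, 1.10 and 1.04, and 1.0 and 0.986. With 3 peaks as the limit, H3K4me3 was higher in LLC-R at 2 of 40 members (all promoters 2.52%) and lower at 2 (5.24%), H3K9ac at 0 (1.12%) and 0 (6.38%), H3K27me3 at 4 (13.0%) and 0 (0.519%), and H3K36me3 was higher at 12 (31.6%). With promoters from 0.5 kb upstream to 0.5 kb downstream, H3K4me3 was lower at 4 members (all promoters 11.1%), H3K9ac higher at 4 (4.12%) and lower at 2 (13.6%), and H3K27me3 higher at 10 (19.4%) and lower at 2 (2.88%). The share of members with more H3K27me3, above that of all promoters in the main count, was below it with 3 peaks as the limit. Median limits for the promoter states define the same states as the means, since peaks are whole numbers, and are not counted above. Peaks without height cannot show how strong a mark is, and without replicates differences of 1 or 2 peaks at single exons cannot be separated from the spread between libraries.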
